A study of Mus musculus with 9 samples.

Results

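The H3K27ac interactions described here are the pairs of 2 kb bins whose anchors lay 300 kb or more apart. They were chosen by span alone: 709 of the 36274 rows of the untreated H3K27ac list (1.95%) and 539 of the 28210 rows of the list after 12 h of IAA (1.91%). The lists come from MNase HiChIP, in which micrococcal nuclease cuts crosslinked chromatin, neighbouring ends are ligated, and an antibody enriches the ligated DNA. The cells were E14 mouse embryonic stem cells with an auxin-inducible degron (AID) on CTCF, grown with LIF, PD0325901 and CHIR99021 in serum-free medium. Every group carries the CTCF AID allele: H3K27ac without treatment (2 libraries), H3K27ac after 12 h of IAA (2 libraries), CTCF without treatment (2 libraries) and RAD21, a cohesin subunit, without treatment (3 libraries). IAA is an auxin that sends AID-tagged proteins to the proteasome. CTCF protein levels were not analysed here, nor was CTCF or RAD21 HiChIP from IAA-treated cells. Each group is 1 list pooled over its libraries, so values carry no replicate error and the spread between libraries of a group is unknown.

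H3K27ac marks active promoters and enhancers, and H3K27ac HiChIP therefore reports contacts that have at least 1 end in such chromatin. Cohesin extrudes chromatin loops until it meets CTCF, most often where the motifs at both loop ends point toward each other, and CTCF sites between a promoter and an enhancer can act as insulators. Active elements can also meet over long distances without CTCF at their ends, for example where clusters of strong enhancers come together. Pluripotent cells keep many such elements active around the genes for Nanog, Esrrb, Klf2 and Tfcp2l1, transcription factors of the naive state.

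Sequences are shown first for 2 kinds of anchors. The first kind is CTCF motif cores. Support of a row by CTCF means that the CTCF list, put on the same 2 kb grid, held a row within 1 bin of both anchors. A degenerate CTCF motif core of 14 positions with at most 1 mismatch was found in 48.8% of the 29959 2 kb bins that hold an anchor of the CTCF list, in 10.1% of the same bins moved by 5 bins and in 15.2% of untreated H3K27ac anchor bins. Among the 87 CTCF-supported untreated rows, it was present at 44.8% of left and 49.4% of right anchors, against 12.5% and 17.2% in the 622 other rows. Left anchors with the core on 1 strand only had it forward in 30 and reverse in 6 rows, and right anchors forward in 7 and reverse in 30. In the unsupported rows the counts were 35 and 38 on the left and 37 and 66 on the right, with 5 convergent and 2 divergent rows. The 16 supported IAA rows had 2 forward and 4 reverse on the left, 2 and 3 on the right, and 0 convergent rows. Of the 14 supported rows with the core on 1 strand at each end, 11 were convergent, 0 were divergent and 3 had both cores on the same strand. Of the 11 convergent rows, 0 were called again after IAA within 1 bin. The share was 6.82% over all supported rows with 7 or 8 contacts, which include 9 of the 11. Those 9 had 7 contacts each, and some of the 11 share an anchor. A class of 7 or 8 contacts is not matched to a count of 7. The largest p-value of the authors' interaction calls was 0.000199 without treatment and 0.000131 after IAA. The same count could therefore pass in 1 list and not in the other. The reason for the count of 0 was not tested in these 11 rows. The 2 of them with the most contacts are shown 5′ to 3′ on the strand of the core, with the core in capitals and 10 flanking bases on each side (RefSeq, GRCm38). The first joins a site near the non-coding transcript Gm43837 to the start site bin of Klf3, a Krüppel-like repressor, and had 14 H3K27ac contacts over 430 kb. The second, on chromosome 12, spans 424 kb and had 13.
Gm43837 side, chr5:64382616-64382649, + strand: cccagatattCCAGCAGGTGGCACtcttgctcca
Klf3 side, chr5:64813656-64813689, - strand: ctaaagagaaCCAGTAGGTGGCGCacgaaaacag
chromosome 12, left, chr12:110418943-110418976, + strand: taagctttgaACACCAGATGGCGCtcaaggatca
chromosome 12, right, chr12:110843835-110843868, - strand: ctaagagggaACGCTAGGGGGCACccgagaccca

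The second kind is sequence that occurs at both anchors of a row, which matters because a read from such a stretch may belong to either end. Anchors were taken to share sequence when at least 50 distinct 31-mers of one occurred in the other on either strand. This held for 14 untreated and 14 IAA rows of 300 kb or more (1.97% and 2.60%), compared with 0.517% and 0.669% of shorter rows. Of the 5 untreated rows with the most contacts, 3 were among them, and their longest identical runs were 287, 176 and 66 bases. The fifth-ranked IAA row, on chromosome 4, also shared sequence, with a run of 105 bases. The first 60 bases of the run are shown in capitals for 3 rows, with 10 flanking bases in lower case, read on the strand given. The run on chromosome 8 starts in the bin of an exon of Haus8, a subunit of the augmin complex, and the right anchor on chromosome 7 lies in an intron of the zinc finger gene Zfp607b.
chromosome 8, left, chr8:71268554-71268633, + strand: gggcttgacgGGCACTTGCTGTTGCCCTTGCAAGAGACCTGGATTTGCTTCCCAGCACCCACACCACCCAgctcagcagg
chromosome 8, right, chr8:71744916-71744995, - strand: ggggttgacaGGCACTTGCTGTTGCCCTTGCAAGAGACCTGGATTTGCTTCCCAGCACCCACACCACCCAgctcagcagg
chromosome 7, left, chr7:27140061-27140140, + strand: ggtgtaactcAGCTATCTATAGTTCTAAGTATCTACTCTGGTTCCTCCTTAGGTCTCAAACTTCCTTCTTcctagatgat
chromosome 7, right, chr7:27694533-27694612, + strand: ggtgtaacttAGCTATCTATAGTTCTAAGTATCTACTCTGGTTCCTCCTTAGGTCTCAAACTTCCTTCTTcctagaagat
chromosome 4, left, chr4:3430576-3430655, + strand: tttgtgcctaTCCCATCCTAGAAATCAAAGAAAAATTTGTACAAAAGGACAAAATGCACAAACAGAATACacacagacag
chromosome 4, right, chr4:3822739-3822818, - strand: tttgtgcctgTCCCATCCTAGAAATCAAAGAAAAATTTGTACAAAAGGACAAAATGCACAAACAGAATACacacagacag

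Long rows rested on few contacts. The median was 8 contacts per row without treatment (range 7 to 116) and 9 after IAA (7 to 127), while the authors' model predicted a median of 1.14 and 1.17 for the same pairs. Rows with 7 or 8 contacts made up 51.8% of the untreated and 39.0% of the IAA rows. In all, the rows held 7063 contacts without treatment and 5975 after IAA, out of 12551236 and 14629323 contacts in the authors' models. The median span was 410 kb and 412 kb, and 18 and 19 rows spanned 1 Mb or more. The untreated rows lay on 20 chromosomes, from 5 on chromosome 19 to 73 on chromosome 1. Both lists together held 1043 distinct pairs, which fell into 776 separate loci when rows within 2 bins of each other at both ends were joined. Most loci, 630, were a single row. Around the span limit, the 43 untreated rows of 300 to 310 kb and the 56 rows of 290 to under 300 kb had the same median of 9 contacts, and 13.95% and 28.6% of them were in the IAA list.

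**Figure D1:**
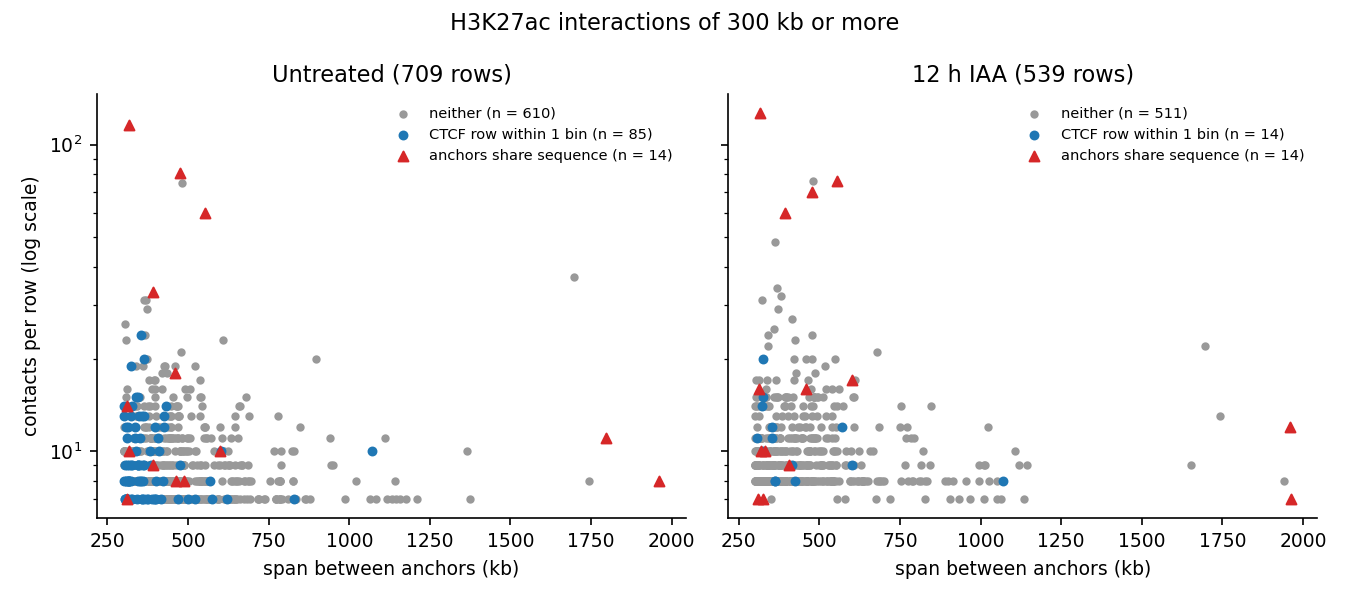
Contacts per row (log scale) against the span between anchors in kb, for the 709 untreated (left) and 539 IAA (right) rows; red triangles mark rows whose anchors share sequence, blue points the other rows with a CTCF row within 1 bin, grey points all others. Most rows sit at 7 to 10 contacts, and 4 of the rows above 30 contacts in each list are red.

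The few rows with the most contacts included several whose anchors share sequence, 4 of the 18 untreated rows with 20 contacts or more. The pair on chromosome 1 at 85276001 and 85592001, 316 kb apart with its right anchor in an intron of Sp110, a nuclear body gene, had 116 contacts without treatment and 127 after IAA. Its CTCF and RAD21 counterparts had 55 and 6 contacts. The Haus8 pair on chromosome 8 had 81 and 70 contacts, the Zfp607b pair on chromosome 7 had 60 and 76, and the pair on chromosome 4 had 33 and 60. A pair on chromosome 6 between introns of Bcat1, a branched-chain aminotransferase gene, and Lmntd1 had 75 and 76 contacts. Its anchors shared no 31-mer, and their longest identical run was 24 bases. A 1696 kb pair on chromosome 15, the fifth in the untreated list with 37 contacts and 22 after IAA, shared 11 31-mers, and its contacts were 5.47% of the coverage of the less covered anchor. For the pairs of Sp110, Haus8, Zfp607b, chromosome 4 and Bcat1, the untreated contacts were 14.6%, 14.5%, 11.3%, 13.3% and 12.7% of the coverage of the less covered anchor, in the order named. Their less covered anchors had a coverage of 792, 558, 529, 249 and 591, below the median of 2754 for that anchor over all untreated rows of 300 kb or more. The median share over those rows was 0.338%, and 8 rows exceeded 5%, of which 6 shared sequence between their anchors. The pair with the most shared 31-mers, 695, joined the non-coding transcripts Gm13162 and Gm13161 on chromosome 4 over 318 kb and had 10 contacts in each list, with a coverage of 60 at its right anchor without treatment. The next, with 654, lay 310 kb apart on chromosome 13 with its right anchor in an intron of the zinc finger gene Zfp808, and its 7 contacts in each list were 30.4% of the coverage of its left anchor. Rows that share sequence were called again after IAA at the same pair in 10 of 14 cases (71.4%), compared with 28.1% of the 695 rows that do not. These groups were not matched on contacts, and the 14 include the 4 rows with 20 contacts or more. Some of the 14 are also neighbours, such as the Sp110 pair and the pair from 85278001 on chromosome 1. Whether the contacts of such rows come from both anchors was not tested.

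The longest rows were of the same kind in part. The longest untreated row, 1960 kb on chromosome 4 from 145562001 to 147522001, had 8 contacts without treatment and 12 after IAA. Its anchors shared 174 31-mers, and no CTCF-list bin lay between them. The next, 1796 kb in the same region, had 11 untreated contacts, shared 347 31-mers and was not called after IAA. Others among the longest rows shared little or no sequence. A 1744 kb pair on chromosome 13 from an intron of Dmgdh, a gene of choline breakdown, had 8 and 13 contacts and shared no 31-mer. The 1696 kb pair on chromosome 15 crossed 40 CTCF-list bins. After IAA, a 1940 kb pair on chromosome 16 with 8 contacts shared none. Over all untreated long rows, the median repeat content of the anchors was lower than in shorter rows, but rows of mostly repeated sequence made up a larger share. The median soft-masked share of the anchors was 19.2% (95% interval 17.9 to 20.2), compared with 21.3% for rows under 300 kb, while 36 rows (5.08%, 3.69 to 6.95) were more than 50% soft-masked, compared with 2.22% of shorter rows (2.07 to 2.38).

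Protein-coding start sites lay at both anchors of 174 untreated long rows, or 24.5% (95% Wilson interval 21.5 to 27.8). The share was 12.0% in all shorter rows, 9.39% below 50 kb and 28.5% at 200 to 300 kb, and the last value lies just above the interval of the long rows. Another 193 rows had a start site at 1 anchor and 342 at neither. After IAA, 25.8% had start sites at both. Intervals of shares cover counting error only, since reads are not independent molecules and neighbouring rows share anchors.

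The strongest promoter pair had 26 contacts without treatment and 17 after IAA. It joined Hcfc1, a transcriptional coregulator gene, to the ribosomal protein gene Rpl10 over 304 kb of the X chromosome, and its log2 ratio of IAA to untreated contacts was -0.58. Arhgap12 and Epc1, a gene of the NuA4 acetyltransferase complex, had 24 and 11 contacts over 354 kb. Hspa9, which encodes a mitochondrial chaperone, and Matr3, a nuclear matrix protein gene, had 23 and 15 over 608 kb. The bin of Hdlbp and Sept2 and that of Ing5, a chromatin reader gene, had 19 and 20 contacts over 324 kb. Topors, a ubiquitin and SUMO ligase gene, and Aptx, a DNA repair gene, had 18 and 12 over 434 kb. Each of these 5 pairs was in both lists, and none of their differences passed the adjusted threshold (adjusted p = 1 in each, exact binomial test).

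In all, 660 protein-coding genes had a start site at an anchor of a long row in either list, 8.51% of the 7754 genes with a start site at any H3K27ac anchor. Among a list of 30 pluripotency regulators, 7 of the 26 at an H3K27ac anchor were at a long row (26.9%): Esrrb, Klf2, Nanog, Nr5a2, Tbx3, Tdh and Tfcp2l1. Of the signalling targets of embryonic stem cells, 1 of 11 was, Axin2, and of the CTCF and cohesin genes, 1 of 10, Wapl. None of 6 developmental transcription factors and none of 4 DNA methylation genes at an H3K27ac anchor had a long row. These counts describe the lists and were not tested.

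The bin of the Phc1 start site, on chromosome 6 from 122340001 to 122342000, had 9 long partners, 8 of them called in both lists. Phc1 encodes a subunit of Polycomb repressive complex 1. The partners ran toward Nanog, the homeobox factor of pluripotency, and on to Slc2a3, a glucose transporter gene. Contacts with the bin at 122662001 numbered 10 without treatment and 31 after IAA, and those with the bin at 122702001 numbered 31 and 48. The Nanog start site bin itself, 366 kb away at 122706001, had 8 and 10. Bins in the intron of Slc2a3 had 9 and 17, 12 and 23, 19 and 18, and 8 and 11 contacts, from 122762001 to 122770001, and 1 more bin had 8 after IAA only. Of the 8 partners in both lists, 7 had more contacts after IAA, in counts not scaled for depth. Over all long pairs in both lists, 139 of 205 had a log2 ratio above 0 after scaling to the shared totals. For shared pairs of any span it was 8359 of 15551. Both of these counts include pairs with equal contacts, which have a log2 ratio of 0.029 on this scale. The rows crossed 13 to 24 CTCF-list bins, and 0 had CTCF support. The log2 ratio of the first, 1.66 (95% interval 0.65 to 2.67), was the highest among shared long rows with at least 20 contacts over both lists, and its adjusted p of 0.249 was the lowest (exact binomial test).

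An intronic bin of Esrrb on chromosome 12, from 86502001 to 86504000, had the most long rows of any anchor, 13. Esrrb is an orphan nuclear receptor of naive pluripotency. Of its rows, 6 were called without treatment, 11 after IAA and 4 in both. Of those 4, 2 had more contacts after IAA. On its right, the bin at 86916001 had 11 contacts without treatment and 27 after IAA, with a log2 ratio of 1.32 (0.33 to 2.32) and an adjusted p of 0.688 (exact binomial test). Its neighbours at 86912001 and 86918001 had 10 and 10, and 8 and 12, and the bin between at 86914001 had 14 after IAA, with no call at that pair without treatment. Rows to 86802001, to 86876001, to an exon of Irf2bpl and, 814 and 816 kb away, to an intron of Sptlc2, a sphingolipid synthesis gene, were called after IAA only, with 8 to 11 contacts. On its left, a bin in an intron of Ift43, a ciliary transport gene, had 8 contacts in each list. Rows to an exon of Ift43 and to the next bin had 8 and 13 contacts without treatment and were not called after IAA at the same pair, but a row within 1 bin of each was. A row 1050 kb to the left was called after IAA only, with 8 contacts. None of the 13 rows had CTCF support, and they crossed 10 to 36 CTCF-list bins. From the Esrrb start site itself, a 446 kb row to 86916001 was called after IAA only, with 8 contacts, and a 302 kb row from another intronic bin was called after IAA only, with 15.

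The other anchors with most long rows were an intergenic bin 1.1 kb from Upp1, a uridine phosphorylase gene, and 2 bins on chromosome 15. The Upp1 bin had 9 rows, 8 of them into the intron of Tns3, a tensin gene, and 7 in each list. Contacts with 8568001 numbered 12 without treatment and 20 after IAA, and those with 8634001 numbered 10 and 15. Of the 5 partners of the Upp1 bin in both lists, 4 had more contacts after IAA. The bins on chromosome 15 at 76958001 and 77354001 had 9 and 11 rows, with 16 and 15 contacts between themselves. They had 2 and 3 partners in both lists, of which 0 had more contacts after IAA. In contrast to Esrrb, the bin at 77354001 had 9 rows without treatment and 5 after IAA. Counts of rows in a list depend on which pairs passed its threshold, so a row missing from a list is not shown to be absent.

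The remaining long rows of pluripotency and signalling genes had 8 to 19 contacts. The start site of Tfcp2l1 had 11 and 9 contacts with that of Gli2, a hedgehog pathway factor, over 426 kb, and 11 and 9 with an intergenic bin 24 kb further on. From an intron of Tfcp2l1, the same intergenic bin had 19 contacts without treatment and was not called after IAA. The Klf2 start site had 10 contacts with that of Zfp617 after IAA only. Nr5a2, an orphan nuclear receptor gene, had 8 contacts without treatment only, as had Tdh, a threonine dehydrogenase gene, with the cathepsin gene Ctsb. Tbx3, a T-box factor gene, had 8 after IAA, with a neighbouring row called without treatment. Axin2, a target and inhibitor of Wnt signalling, had 15 contacts with Cep112 in each list over 496 kb, and its row crossed 3 CTCF-list bins. Wapl, which releases cohesin from DNA, had 10 contacts after IAA only.

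Of the 709 untreated long rows, 205 were in the IAA list at the same bin pair, or 28.9% (25.7 to 32.4), compared with 42.9% of untreated rows of any span. Within 1 bin it was 274 rows, or 38.6% (35.1 to 42.3), compared with 65.7%. In the other direction, 38.0% of IAA long rows (34.0 to 42.2) were in the untreated list, against 55.1% of IAA rows of any span, and 51.2% within 1 bin, against 75.9%. The share called again was lower at longer spans already below the limit, at 46.7% under 50 kb and 27.8% at 200 to 300 kb. It was 24.8% at 300 to 400 kb, 35.1% at 400 to 600 kb and 26.4% beyond. The interval for all long rows includes the value at 200 to 300 kb.

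Contact count moved with the share called again. With 7 or 8 contacts, 24.8% of the long rows and 26.6% of the shorter rows were called again within 1 bin. With 9 or 10 contacts the shares were 41.8% and 43.8%, with 11 to 14 contacts 57.4% and 62.1%, and with 15 or more 83.3% and 84.8%. At matched counts the 2 spans thus differed by at most 4.7 percentage points, while over all rows they differed by 27.6.

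**Figure D2:**
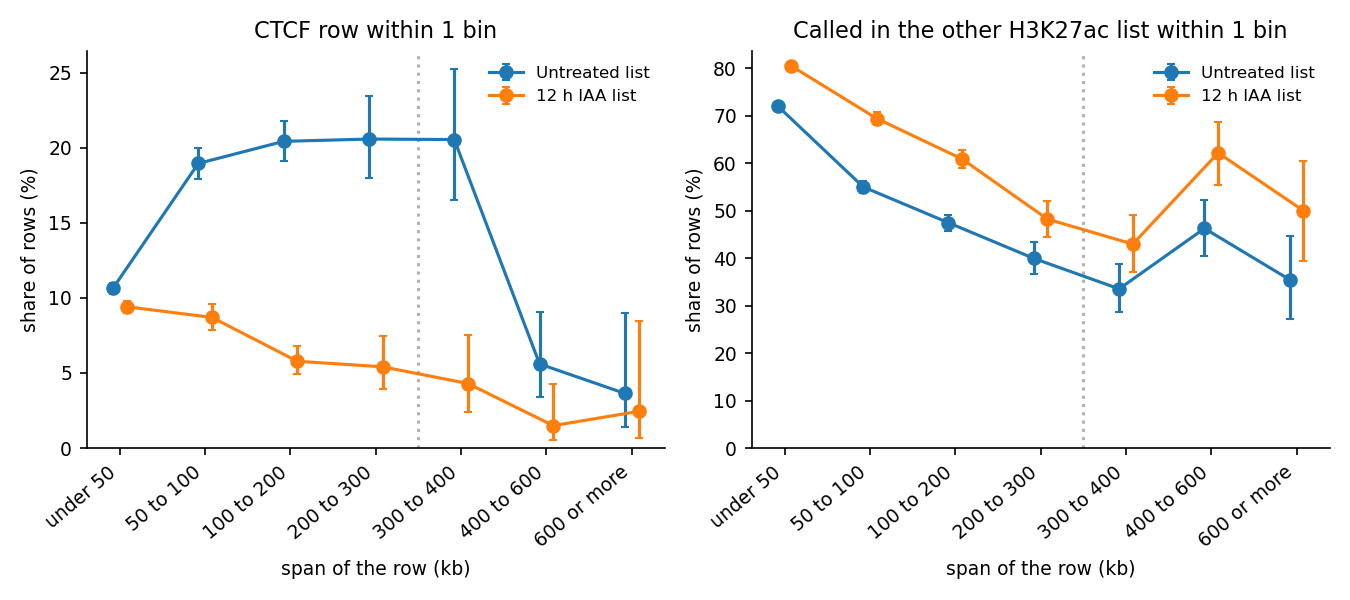
Share of H3K27ac rows (%) with a CTCF row within 1 bin (left) and called within 1 bin in the other H3K27ac list (right), by span class in kb, for the untreated (blue) and IAA (orange) lists; bars are 95% Wilson intervals and the dotted line is the 300 kb limit. CTCF support of untreated rows is 20.5% at 300 to 400 kb and 5.60% at 400 to 600 kb, and is lower in the IAA list in each class.

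CTCF support was present for 87 untreated long rows, 12.3% (10.1 to 14.9), near the 13.1% of untreated rows of any span. At the same bin pair the share was 7.48% of the long rows. It depended on span: 68 of 331 rows (20.5%) at 300 to 400 kb, 15 of 268 (5.60%) at 400 to 600 kb and 4 of 110 (3.64%) beyond. RAD21 support was present for 57 rows, 8.04% (6.26 to 10.3), compared with 13.2% at any span, 5.36% at the same bin pair, and for 14.5%, 2.99% and 0.909% of the 3 span classes. The CTCF list itself held 11637 rows of 300 kb or more (23.4% of its rows) and the RAD21 list 4097 (17.3%). Both supports coincided at 52 untreated rows, CTCF stood alone at 35, RAD21 alone at 5, and 617 rows had neither. After IAA, 16 of 539 long rows lay at a row of the untreated CTCF list, 2.97% (1.84 to 4.77), compared with 8.78% of IAA rows of any span, and 7 at a RAD21 row. Of those 16 rows, 12 were also in the untreated H3K27ac list.

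CTCF-supported long rows were called again less often than the others. At the same pair, 12 of 87 (13.8%) were in the IAA list, compared with 193 of 622 without support (31.03%), a difference of -17.2 percentage points (95% interval -24.1 to -7.78). Within 1 bin the shares were 17.2% and 41.6%. The order was the same in each class of contacts: 6.82% and 27.2% at 7 or 8 contacts, 16.7% and 44.9% at 9 or 10, 26.3% and 62.7% at 11 to 14, and 66.7% of 6 rows and 85.7% of 42 at 15 or more. By span it was 13.2% and 27.8% at 300 to 400 kb and 6.67% and 36.8% at 400 to 600 kb at the same pair. Beyond 600 kb the order was reversed, at 2 of 4 supported rows and 25.5% of 106 others. Rows of 200 to 300 kb, which are not members, had 14.6% and 31.2%. With 1 pooled list per condition these differences compare the lists, and a difference between library preparations and an effect of IAA cannot be told apart.

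**Figure D3:**
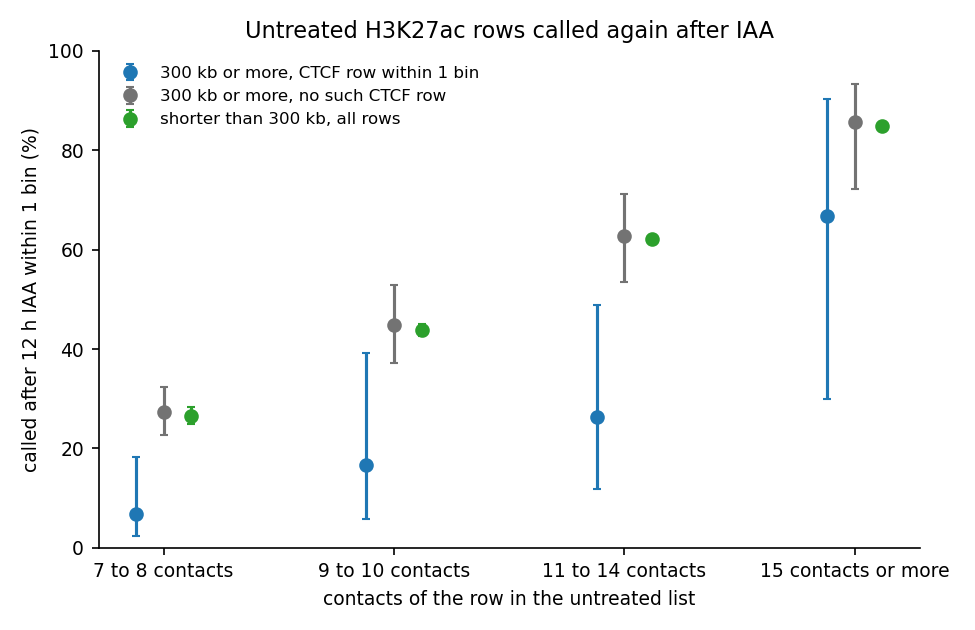
Share (%) of untreated H3K27ac rows called after 12 h of IAA within 1 bin, by contacts of the row, for rows of 300 kb or more with a CTCF row within 1 bin (blue), those without (grey) and all shorter rows (green); bars are 95% Wilson intervals. At 7 or 8 contacts the values are 6.82%, 27.2% and 26.6%, and in each class blue is lowest.

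The supported rows were not alike. Of the 52 rows with both CTCF and RAD21 support, 3 were called again at the same pair (5.77%), and of the 35 with CTCF support alone, 9 (25.7%). These classes differed in what lay at their anchors: start sites were at both ends of 3.85% of the former and 42.9% of the latter. Among rows with CTCF support alone, 7 of the 15 with start sites at both ends were called again (46.7%, 24.8 to 69.9) and 2 of the 20 others (interval 2.79 to 30.1). Hdlbp with Ing5 and Arhgap12 with Epc1 are among the 7, with CTCF counterparts of 24 and 10 contacts. The rows of the Hdlbp bin to the neighbouring bins at 93800001, 93802001 and 93804001 are all among the 7. The 7 are therefore not separate loci, which the interval does not take into account. Among rows with neither support, the shares were 27.7% of 155 with start sites at both ends and 32.0% of 462 others. Within 1 bin they were 29.0% (22.5 to 36.6) and 45.9% (41.4 to 50.4). In addition, 60 untreated long rows had both anchors on CTCF-list bins that the CTCF list does not join to each other. Of these, 65.0% had start sites at both ends and 28.3% were called again.

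Of the rows with both supports and most untreated contacts, the Sp110 pair and its neighbour at 85278001, whose anchors also share sequence and which had 14 and 16 contacts, were in the IAA list at the same pair. The other 4 named here were not. A 364 kb row to the bin of Mttp, a lipid transfer gene, and Trmt10a, a tRNA methyltransferase gene, had 20 H3K27ac, 18 CTCF and 10 RAD21 contacts, and a neighbouring row was called after IAA. A 346 kb row on chromosome 4 from 138448001 had 15, 20 and 22. A 302 kb row into an intron of Nmnat2, an NAD synthesis gene, had 14, 16 and 12, and the Klf3 row with the motif cores printed above had 14, 52 and 23. None of these last 3 had a row within 1 bin after IAA. The right anchor of the Klf3 row had a coverage of 4502 without treatment and 4899 after IAA. The right anchor of the chromosome 4 row had 4534 and 6091, and those of the Nmnat2 row had 2058 and 2831 on the left and 5123 and 5840 on the right. These coverages are as deposited and not scaled to the contacts in the authors' models, which were 12551236 without treatment and 14629323 after IAA. The part of H3K27ac coverage in these rows was not tested.

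Rows without support were also among those called in 1 list only. The start site bin of Npm1, the nucleophosmin gene, had 20 contacts without treatment with a bin 374 kb away and 16 with an exon of Gabrp, and neither was called after IAA within 1 bin. On chromosome 12, a 418 kb row into an intron of Mok had 18. After IAA only, 5 rows had 15 contacts each. They were the intronic Esrrb row, Pabpc1 (a poly(A)-binding protein gene) with Zfp706, an intron of Schip1 with the bin of Smc4 (a condensin gene) and Ift80, the bin of Lrrc41 and Uqcrh with Gpbp1l1, and the bin of Paics and Ppat (purine synthesis genes) with that of Noa1 and Polr2b. Of these 5 rows, 3 joined protein-coding start sites at both ends and none had CTCF support. Beside the Pabpc1 row, a row from the same Pabpc1 bin to 37008001 had 9 contacts after IAA. That neighbour had an untreated row within 1 bin.

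Long rows crossed bins of the CTCF list in most cases. The median untreated row had 9 such bins between its anchors (quartiles 5 and 15, range 0 to 60), or 3 when a bin needed at least 3 CTCF rows, and 55 rows (7.76%) had none. After IAA the median was 10 (range 0 to 56), and 56 rows (10.4%) crossed none. Per 100 kb, the untreated median was 2.02, while the genome as a whole held 1.10 such bins per 100 kb. The genome value also covers sequence without H3K27ac rows, so it does not show whether long rows differ from shorter ones. The IAA rows that were not called without treatment within 1 bin crossed a median of 11 bins, compared with 8 for IAA rows called in both. At 300 to 400 kb the medians were 11 and 7, at 400 to 600 kb 9.5 and 9, and beyond 600 kb 11 and 7. The untreated rows that were not called again and those that were had the same median of 9, and 8 and 8 at 300 to 400 kb. CTCF-list bins were defined from untreated cells in both cases.

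**Figure D4:**
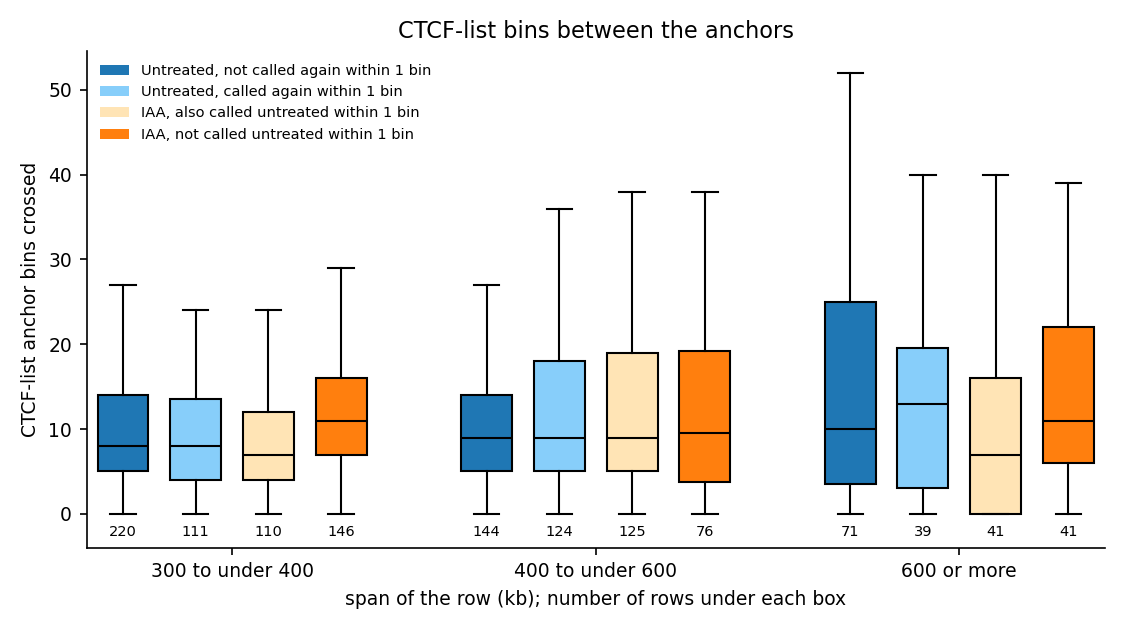
Number of CTCF-list anchor bins between the anchors, by span in kb, for untreated rows not called again and called again, and for IAA rows also called and not called without treatment, all within 1 bin; boxes span the quartiles with the median as a line, whiskers reach the last row within 1.5 box lengths, points beyond are not drawn, and the number of rows is under each box. IAA rows not called without treatment (orange) have a median of 11 at 300 to 400 kb, the highest of the 4 groups.

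The contacts of the 205 long pairs in both lists add up to 2641 without treatment and 2904 with IAA. Scaled to the totals over all 15551 shared pairs, the median log2 ratio was 0.14 (95% interval 0.03 to 0.22). The ratio was above 0 in 139 pairs and below 0 in 66. A pair with equal counts has a ratio of 0.029 on this scale and so counts as above 0. The median was 0.03 for the shared pairs under 300 kb and -0.04 for those of 200 to 300 kb. Shared pairs had to be called in both lists, and the limits of the lists differed. The largest p-value of the authors' interaction calls was 0.000199 without treatment and 0.000131 after IAA. How far this moved the ratios of pairs near the limit was not tested. For long pairs with at least 10 contacts the median was 0.05 (0.03 to 0.16, 89 pairs). By span it was 0.13 at 300 to 400 kb, 0.04 at 400 to 600 kb and 0.22 beyond. The sign of the median over the 205 pairs depended on scaling. Scaling to the contacts in the authors' models shifts every pair by -0.25 and gave -0.11, and scaling to the long pairs themselves, which centres them near 0, gave -0.03 (-0.14 to 0.06). Such shifts leave the order of long and shorter pairs as it is. Contacts divided by anchor coverage gave -0.06 (-0.14 to 0.04) for the long and -0.17 for the shorter pairs. Anchor coverage had a median log2 ratio of 0.17 in these pairs. By the exact two-sided binomial test, 0 of 205 pairs passed an adjusted p of 0.05 (Benjamini-Hochberg over 15551), while 0.0965% of shared pairs of any span were higher and 0.0386% lower. At an unadjusted p under 0.05 there were 9 (4.39%). The test sets 1 pooled list against the other and says nothing about variation within a condition. On simulated counts at the depth of these pairs, 34.0% of changes of 4-fold were found and 2.0% of those of 2-fold. Changes of that size in single long pairs were thus often not detectable. The simulation changed 200 long pairs at once and kept each pair whatever its counts, while a real pair had to be called in both lists. Its shares are therefore not the exact power of the test on these data.

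**Figure D5:**
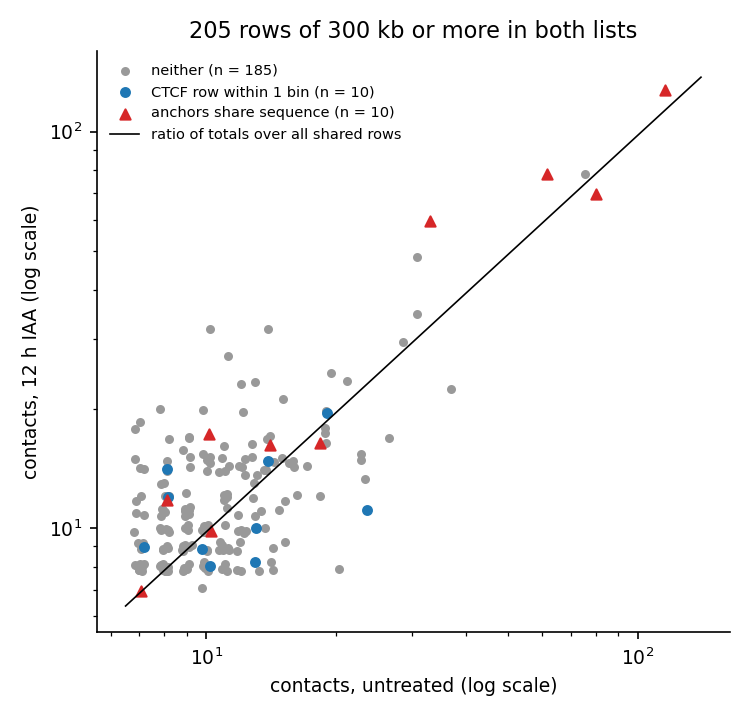
Contacts after 12 h of IAA against contacts without treatment, both on log scales, for the 205 long pairs in both lists, moved at random by up to 0.04 on the log2 scale so that equal counts can be seen; the line is the ratio of totals over all shared pairs, and colours are as in the plot of contacts by span. The red pairs at 116 and 81 untreated contacts lie near the line.

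Among shared pairs with at least 20 contacts over both lists, the highest ratios after the Phc1 row belonged to Smarcd2, a BAF complex gene, with the bin of Cep95 and the RNA helicase gene Ddx5 (7 and 19 contacts, log2 ratio 1.47), an intergenic pair on chromosome 9 (7 and 18, 1.39), an intron of Btbd9 with an intron of Glp1r (8 and 20, 1.35) and the Esrrb row. The lowest belonged to an intron of Arrdc3, an arrestin family gene, with the start site of Cetn3, a centrin gene (20 and 8, -1.29). Arhgap12 with Epc1 followed (-1.10), then Zfp78 with an intron of Peg3, an imprinted zinc finger gene (24 and 13, -0.86), Klf6 with Gm35330 (14 and 8, -0.78), and an intergenic pair on chromosome 18 (14 and 8, -0.78). The adjusted p of the named pairs ranged from 0.249 to 1, so none of these differences passed the threshold. The sequence-sharing pair on chromosome 4 had a log2 ratio of 0.89 (0.28 to 1.5, adjusted p = 0.579, exact binomial test).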

How the data were processed

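MNase HiChIP was deposited as 1 list of called interactions per group: H3K27ac without treatment, H3K27ac after 12 h of IAA, CTCF and RAD21. Per the labels, a group's libraries all point to 1 list. Per the file headers, a row holds a contact count, the coverage and peak flag of both bins, modelled bias and expected values, a probability between 0 and 1 (a fraction), a q-value and the p-value behind it. The deposited counts are raw whole numbers without any normalisation by the authors, and the largest deposited q-value in the untreated list is just under 0.05. The submitters' processing notes name Trim Galore, BWA, MACS2, deepTools and the mm10 build, which is GRCm38; the names of the deposited files carry FitHiC and a q of 0.05, and the version and settings of that interaction caller are not given in the sources used here. The scale of the modelled values was taken as counts, and the depth is the number of contacts in the authors' models.

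Members were selected by span. The members, gene lists and settings were chosen with earlier results of these data known, and the motif core after its match to CTCF-list bins was seen. CTCF and RAD21 rows (1 kb bins) were put on the 2 kb grid. Gene names come from GENCODE M21, sequence and soft-masking from RefSeq. Counts of shared pairs were compared with the exact two-sided binomial test, tested on simulated data with 200 changed pairs. The named rows are those with most contacts, the longest, those with the most extreme ratios, the 5 with both or neither support, the promoter pairs, those with most shared 31-mers, the 5 busiest anchors, those in 1 list only, and those at listed genes. Python 3.11.15, pandas 2.3.3, NumPy 2.4.6, SciPy 1.17.1 and pyfaidx 0.9.0.4 were used. Of the 62 planned combinations of result and setting 56 were computed, and 5 were added after seeing the data.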

Additional observations from a re-analysis of the deposited data

How the results depend on the processing

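Settings were changed one at a time. Of 61 combinations, 38 gave a value inside the 95% interval of the main value, or a count at most 1.5 times away. Tolerance mattered most for the share called again: 38.6% within 1 bin and 40.1% within 2 bins for untreated rows, and 51.2% and 53.6% for IAA rows. For untreated rows it was 32.6% with a limit of 500 kb, 36.8% with at least 10 contacts and 34.6% with lists of equal length, which gave 33.4% for IAA rows. CTCF support was 16.8% at 200 kb or more, 4.35% at 500 kb or more, 7.48% at the same bin pair and 15.9% within 2 bins. RAD21 support was 11.6%, 1.09% and 5.36% for the first 3 of these. The median number of CTCF-list bins crossed was 7.5 at 200 kb or more and 3 when bins needed at least 3 CTCF rows. The supported minus unsupported difference was -24.4 percentage points within 1 bin and -26.0 within 2 bins, and was negative under each of the 11 settings tried. With a limit of 500 kb it was -7.95 points, with an interval of -27.2 to 26.7 that includes 0, from 8 supported rows. Start sites within 1 bin of both anchors were found in 30.0% of rows. The median log2 ratio was 0.029 with a limit of 200 kb, which is the value of a pair with equal counts. It was 0.17 with 500 kb and 0.051 with at least 10 contacts. It turned negative under 3 settings: -0.11 with model totals, -0.030 with totals over the long pairs, which centre it near 0, and -0.064 per anchor coverage. The intervals of the last 2 (-0.14 to 0.06 and -0.14 to 0.04) include 0. The number of changed pairs was 0 under the 200 kb limit and under both other scalings; a stricter threshold or a longer limit can give no more than the 0 reported. Counting 1 row per locus, added after seeing the data, gave 27.4% called again, 11.9% with CTCF support and a difference of -17.4 points.

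No paired analysis was possible because each list is pooled over its replicates. For the same reason the replicate block and leaving out each replicate were not run. Depth limits the rest: with a median of 8 contacts per row, a row missing from a list was not called at this depth. In a simulation without the limit for a call, 34.0% of 4-fold changes in single long pairs were recovered.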
